A study of Mus musculus with 9 samples.

Results

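The 39 genes described here encode the machinery by which a nerve terminal stores, releases and recycles synaptic vesicles. They were taken as a list of mouse symbols drawn up for this work with earlier results of these data known. All 39 were found among the 54232 genes of the count files, all are protein-coding in GENCODE M21, and all 39 passed the filter on low counts. RNA was sequenced from 9 libraries of cortical neurons labelled wildtype and CD1, an outbred mouse stock, in 3 groups of 3 repeats. The control libraries carry PDL in their names, which the labels do not spell out. The PA libraries, named IKVAV, received a peptide amphiphile (PA), a short peptide with an alkyl chain, a kind of molecule that forms nanofibres. IKVAV is a cell-binding sequence of laminin. The PA + PS2 libraries are named for IKVAV with PEDOT-S-OH, and PEDOT polymers conduct electricity. The treatment label reads peptide amphiphile on all 9 libraries, controls included, so the groups follow the titles. Culture times, amounts and the age of the donor animals are not given in the sources used here. Separate cultures are not named for the repeats, and the p-values then cover only library-to-library spread, which may be technical.

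A synaptic vesicle is held in a cluster by synapsins, docked at a protein scaffold called the active zone, and primed by proteins that assemble SNARE complexes between vesicle and plasma membrane. Calcium binding to synaptotagmins then triggers fusion, and the membrane is retrieved by dynamin and its partners and refilled with transmitter by vesicular transporters. In cortical neurons many of these genes, though not all, are known to rise as axons form synapses, and the main transmitter of the cortex is glutamate.

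Libraries held 20746851 to 27237398 counts, of which the 39 genes took 0.856% to 0.916%. Levels are in CPM, the field's usual unit of counts brought to a common library size, here with library sizes scaled by TMM (trimmed mean of M values). At 10 CPM the shallowest library held 207 reads, with a counting error of 6.94%. Mitochondrial genes took 0.342% of counts in PA repeat 1, 0.531% in control repeat 1 and 0.786% to 1.39% in the other 7 libraries. PA repeat 2 had a count for 24702 genes, against 22064 to 23223 in the other 8. Markers of neurons were high in every library: the 15 pan-neuronal markers summed to 15300 to 18600 CPM per library, 7 markers of glutamatergic cortical neurons to 1560 to 2070 CPM and 9 markers of GABAergic neurons to 872 to 1190 CPM. Other cells were present at lower levels, with 10 astrocyte markers summing to 278 to 406 CPM and 7 microglia markers to 3.08 to 7.35 CPM. Of the mean astrocyte sum in control, 342 CPM, Slc1a2 held 136 CPM and Glul 105 CPM, while Gfap and Aqp4 averaged 0.824 and 0.863 CPM. Of the 9 astrocyte markers tested in PA + PS2 against PA, 7 had log2 fold changes below 0 and 2 above, with a median of -0.644. In PA + PS2 against control 6 were below 0 and 3 above, with a median of -0.072. In PA against control 2 were below 0 and 7 above, with a median of 0.248. The 9 fibroblast, mural and meningeal markers summed to 135 to 195 CPM in control, 89.3 to 159 CPM in PA and 11.9 to 57.0 CPM in PA + PS2. The 8 progenitor and dividing-cell markers summed to 164 to 333 CPM in control, 215 to 294 CPM in PA and 132 to 157 CPM in PA + PS2. The 6 endothelium markers summed to 5.87 to 8.89, 4.96 to 7.54 and 2.08 to 4.43 CPM, in the same order. The 8 markers of the oligodendrocyte lineage summed to 59.9 to 85.6, 67 to 77.4 and 50.5 to 72.1 CPM. Of these 8, the log2 fold change in PA + PS2 against control was below 0 for 6 and above 0 for 2. The part of these non-neuronal cells in the values below was not tested. In bulk RNA, fewer cells of a type and less RNA per cell cannot be told apart.

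The presynaptic genes kept nearly the same total in every group. Their summed level was 8810 ± 292 CPM in control, 8840 ± 211 CPM in PA and 8810 ± 202 CPM in PA + PS2 (SD, n = 3 each). Per kilobase of exon, control levels ran from 0.598 ± 0.0565 CPM for Vamp1, a vesicle SNARE of fast-firing hindbrain and spinal circuits, to 165 ± 6.68 CPM for Vamp2, the main vesicle SNARE of the forebrain. Below Vamp2 came Rab3a, the vesicle GTPase, at 157 ± 14.6 CPM per kilobase and Syt4, a synaptotagmin of vesicles and secretory granules, at 152 ± 16.7 CPM per kilobase, and these 3 neighbours lay within the SD of one another. Above Vamp1, the lowest were Sv2c at 2.55 ± 0.296 and Sv2b at 2.97 ± 1.44 CPM per kilobase, both rarer relatives of the vesicle glycoprotein Sv2a, and they did not differ beyond their spread. Among all genes tested, Vamp2 stood at percentile 99.3 of the level per kilobase in control, Bsn at percentile 88, Slc17a7 at percentile 53.7 and Vamp1 at percentile 19.1.

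**Figure D1:**
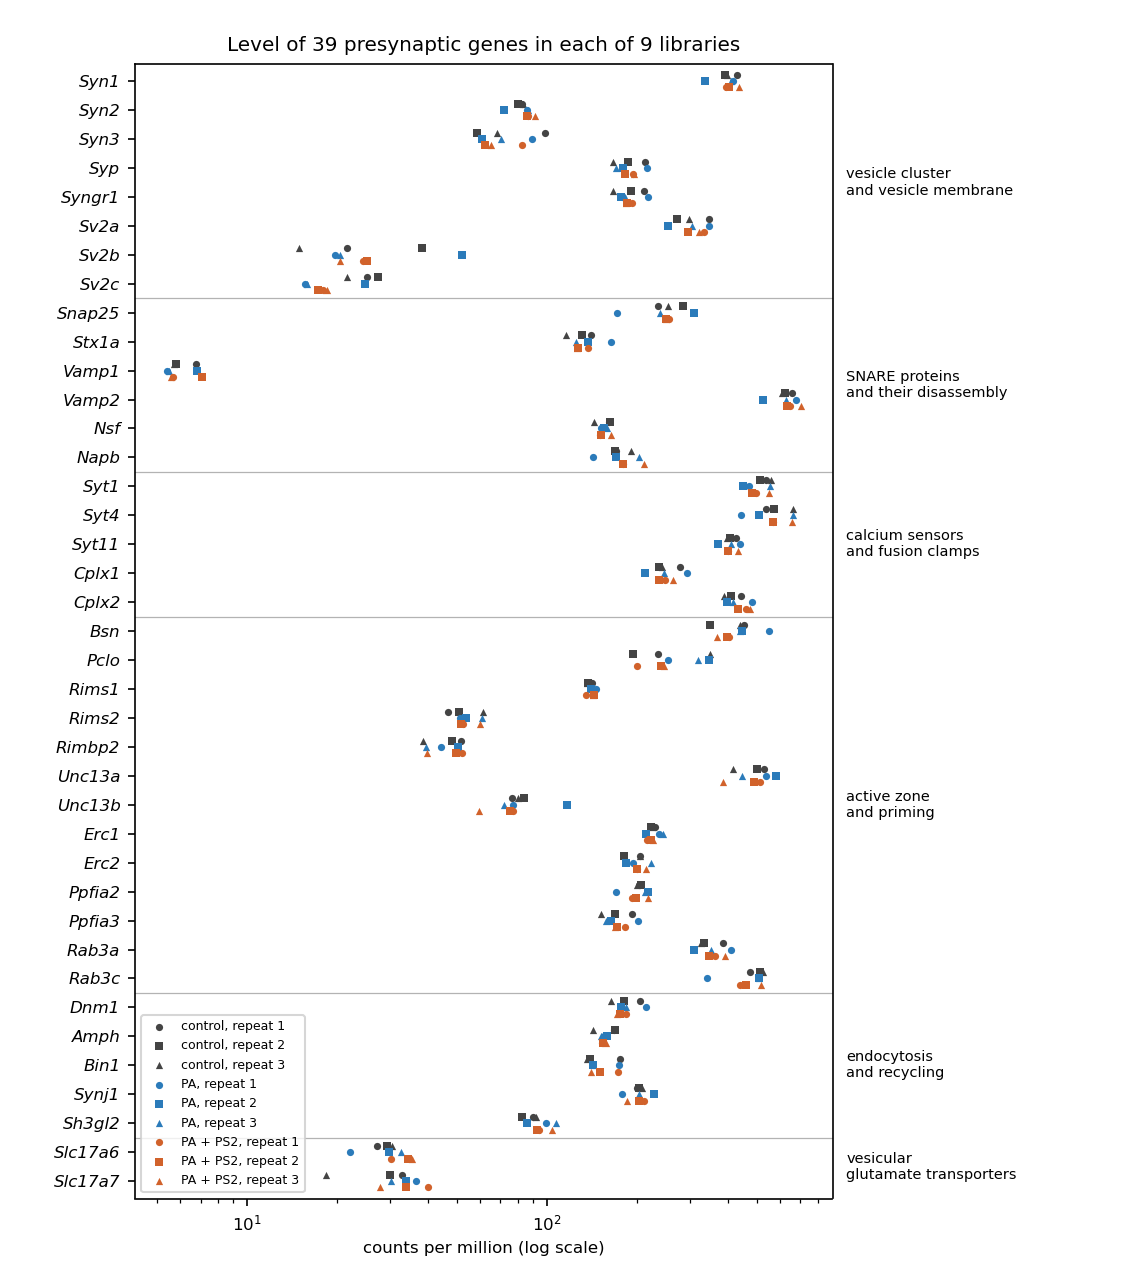
Level of each of the 39 genes in CPM (log axis) in the 9 libraries, grouped by role; colour gives the group and the symbol the repeat. For most genes the 3 colours overlap, and Vamp1 lies near 6 CPM in all of them.

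No member passed the test in any comparison. In PA against control 0 of 39 had an adjusted p under 0.05 by the quasi-likelihood test of edgeR with Benjamini-Hochberg adjustment, where 0% of the 15712 genes tested passed. At an unadjusted p under 0.05 stood 1 member, Sv2c, and 1.22% of all genes. With the repeat number as a block in the model, 2 members stood there, Sv2c and Slc17a7, and 2.74% of all genes. Likewise 0 of 39 passed in PA + PS2 against control, beside 7 of all genes (0.0446%), or 184 (1.17%) with the repeat as a block, a fit in which 0 members passed too. The unadjusted threshold was met by 1 member, again Sv2c, and by 5.63% of all genes, and with the block by 2, Sv2c and Slc17a7, and 8.1% of all genes. For PA + PS2 against PA 0 of 39 passed, beside 0% of all genes, and 2 members, Bsn and Pclo, met the unadjusted threshold with 5.61% of all genes. DESeq2 called 0 members in each comparison, and of all genes it called 0% in PA against control, 208 (1.19%) in PA + PS2 against control and 121 (0.691%) in PA + PS2 against PA.

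The estimates for most members were close to 0. The median log2 fold change over the 39 was -0.002 in PA against control, 0.010 in PA + PS2 against control and 0.014 in PA + PS2 against PA, against -0.008, -0.001 and 0.005 over all genes tested. Estimates above 0 were found for 18, 22 and 22 of the 39, in the same order, and for 47.2%, 49.8% and 51.4% of all genes. Within 0.2 of 0 on the log2 scale lay 34, 36 and 34 of the 39, in the same order, and 74.6%, 70.0% and 68.8% of all genes. The 95% interval stayed inside 0.5 on either side of 0, a 1.41-fold change, for 34, 32 and 34 members and for 51.4%, 50.5% and 49.5% of all genes. These shares compare abundant members with genes of all levels, and the members were no tighter than genes at their own level: the median SD of log2 CPM within groups was 0.151 in the members, 0.138 in the 2396 genes at their middle levels and 0.216 in all genes tested. Members reaching past 0.5 in at least 1 comparison were Sv2b, Sv2c, Syn3, Bsn, Pclo, Unc13b, Slc17a6 and Slc17a7. A p that misses the threshold does not show that values did not differ, and the intervals give the sizes that the data leave. Libraries of a group did not overlap with those of the other group for 0 members in PA against control (1.97% of all genes were higher and 2.07% lower in this way). Such separation was seen in PA + PS2 against control for 2 higher members, Syn2 and Sh3gl2 (5.38% of all genes), and 1 lower, Sv2c (6.54%). Between PA + PS2 and PA it was seen for 2 lower members, Bsn and Pclo (6.32%), and 0 higher (3.32%). The 2 comparisons with control share the control libraries, and those with PA + PS2 share its libraries.

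**Figure D2:**
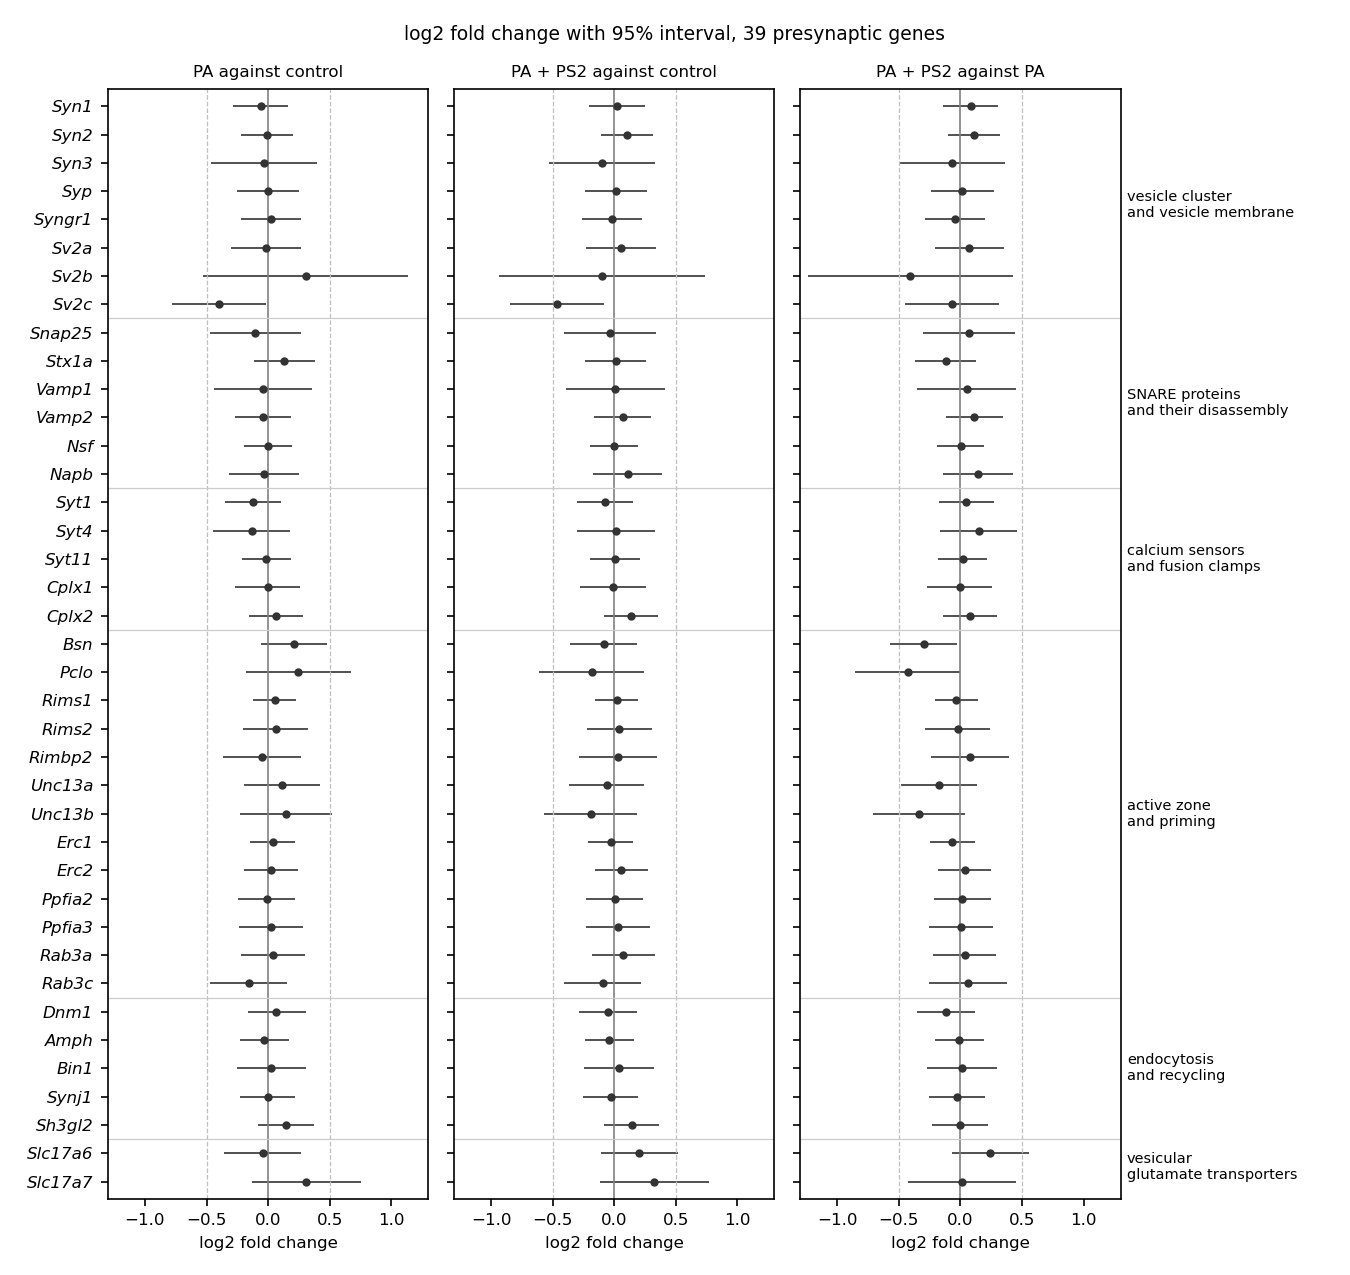
The log2 fold change of each gene (points) with its 95% interval (bars) in the 3 comparisons, in the same order by role, with dashed lines at 0.5 on either side of 0. Intervals of Sv2c lie below 0 in both comparisons with control, those of Bsn and Pclo lie below 0 in PA + PS2 against PA, and no adjusted p was under 0.05.

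Promoter sequence is shown for Syn1, Sv2c, Ppfia3 and Sh3gl2, which differ in the motif letters they hold. RefSeq entries (GRCm38.p6) matched 33 of the 39 genes by symbol; Vamp2, Syt4, Snap25, Bin1, Rims2 and Syn3 were not matched. In the 250 bases before the RefSeq start, 16 short strings were searched on both strands. From these, 4 were chosen for fuller description after their shares were seen, so no test was made. The string TTCAGCACC, which opens the RE1 motif bound by the neuronal-gene repressor REST, was in 2 of the 33 (6.06%), Syn1 and Ppfia3, and in 0.348% of 27025 genes. With the 50 bases after the start added it was in 3, the third being Unc13a. TGACGTCA, the cyclic AMP response element, was in 2 (6.06%), Syn1 and Sh3gl2, and in 1.77% of all genes. The GC box GGGCGG was in 23 (69.7%) and in 35.4% of all, and TATAAA was in 1 (3.03%), Sv2b, and in 14.3% of all. Median GC content of these windows was 61.6% in the members and 52.4% in all genes. A match is a description of letters, not a bound site. The Syn1 stretch is shown as the member that holds both TTCAGCACC and TGACGTCA. It lies at chrX:20921005-20921168 on the minus strand, ending 86 bases before the RefSeq start where the GENCODE gene begins. Capitals mark TTCAGCACC and TGACGTCA.
Syn1: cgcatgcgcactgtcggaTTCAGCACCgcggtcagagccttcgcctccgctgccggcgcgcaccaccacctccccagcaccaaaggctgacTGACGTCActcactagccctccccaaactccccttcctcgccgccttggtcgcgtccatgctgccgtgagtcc
The stretch before Sv2c, at chr13:96132578-96132827 on the minus strand, is shown as that of the member with the smallest p against control in the fit without the block. It held neither TTCAGCACC nor TGACGTCA, and its capitals mark the GC box, here read on the other strand.
Sv2c: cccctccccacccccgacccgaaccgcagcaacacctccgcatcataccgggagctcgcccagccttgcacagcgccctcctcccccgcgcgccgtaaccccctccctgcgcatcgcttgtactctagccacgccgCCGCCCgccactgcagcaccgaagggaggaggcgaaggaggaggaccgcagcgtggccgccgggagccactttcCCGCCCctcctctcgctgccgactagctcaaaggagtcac
The other members with a match to TTCAGCACC or TGACGTCA before the start are shown as short windows around it. The Ppfia3 window is at chr7:45367047-45367075 on the minus strand, with its match 37 bases before the start. The Sh3gl2 window is at chr4:85205409-85205436 on the plus strand, inside the span of the GENCODE gene, with its match 29 bases before the RefSeq start.
Ppfia3: tcattggccaTTCAGCACCgtccgtcagt
Sh3gl2: tcacccgcccTGACGTCAgggtgtctct

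Among the 8 genes of the vesicle cluster and vesicle membrane, 0 passed in any comparison. The synapsins tether vesicles to each other and to actin. Syn2 stood at 82.7, 80.0 and 83.0 CPM in control repeats 1, 2 and 3, at 86.1, 71.7 and 86.7 CPM in PA and at 86.6, 85.8 and 91.2 CPM in PA + PS2. Its PA + PS2 libraries were all above the controls, by a log2 fold change of 0.10 ± 0.10 (SE, unadjusted p = 0.313, adjusted p = 1, edgeR), and the range of the PA libraries overlapped both groups. With the block the log2 fold change was 0.10 ± 0.08 (unadjusted p = 0.225, adjusted p = 0.891, edgeR). Syn1, the most abundant synapsin, ran from 336 CPM in PA repeat 2 to 436 CPM in PA + PS2 repeat 3, with log2 fold changes of -0.06 ± 0.10 in PA against control and 0.02 ± 0.10 in PA + PS2 against control. Syn3, the synapsin of early neurons, stood at 98.6, 58.6 and 68.0 CPM in control, 89.0, 60.9 and 70.3 CPM in PA and 82.6, 62.2 and 65.0 CPM in PA + PS2. Repeat 1 was highest in all 3 groups, and the groups overlapped.

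Each synapsin gene harbours a gene for an inhibitor of matrix metalloproteinases on its opposite strand. Exons of Timp3 share 1733 bases with those of Syn3, 14.1% of its exon length, and exons of Timp4 share 90 bases with Syn2, while Timp1 lies inside Syn1 and shares no exon base with it. Timp3 stood at 10.4 to 16.3 CPM in control and 5.24 to 9.86 CPM in PA + PS2, a log2 fold change of -0.79 ± 0.23 (adjusted p = 0.277, edgeR). Timp4 stayed between 0.333 and 2.01 CPM and Timp1 between 0 and 0.88 CPM. Strand use in counting is not stated, so reads of Syn3 and Timp3 in the shared bases cannot be told apart. The same holds for Ppfia2, with 24.5% of its exon length shared with other genes, Syp with 16.8%, Syt4 with 14.5% and Erc1 with 11.8%.

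Among the vesicle glycoproteins, Sv2c had the smallest p of all members in both comparisons with control in the fit without the block. Sv2c (chr13:95954594-96132577, mm10, minus strand) binds synaptotagmin and is known from basal ganglia. It stood at 25.2, 27.3 and 21.6 CPM in control, at 15.6, 24.8 and 15.9 CPM in PA, and at 17.9, 17.2 and 18.5 CPM in PA + PS2. All PA + PS2 libraries lay below all controls, while PA repeat 2 lay among the controls. The log2 fold change was -0.40 ± 0.18 in PA against control (95% interval -0.78 to -0.02, unadjusted p = 0.0424, adjusted p = 1, edgeR) and -0.47 ± 0.18 in PA + PS2 against control (-0.85 to -0.08, unadjusted p = 0.0214, adjusted p = 0.599). Without PA repeat 2 the first of these was -0.66. With the block the values were -0.41 ± 0.14 (unadjusted p = 0.0145, adjusted p = 1, edgeR) and -0.45 ± 0.14 (unadjusted p = 0.00877, adjusted p = 0.257), and in PA against control the unadjusted p of Slc17a7 was then smaller, at 0.0114. Sv2c was lower than the control of the same number in 3 of 3 repeats in both. The promoter of Sv2c is the second sequence printed above.

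The relatives of Sv2c showed other patterns. Sv2b stood at 21.6, 38.3 and 14.9 CPM in control, 19.7, 52.3 and 20.5 CPM in PA and 24.3, 25.1 and 20.4 CPM in PA + PS2. Repeat 2 was the highest in each group, by far in control and PA, and the interval of its log2 fold change in PA + PS2 against PA, from -1.24 to 0.43, was the widest of any member. Leaving out PA repeat 2 turned that estimate of -0.41 to 0.23. Sv2a, the glycoprotein of nearly all synapses and the target of levetiracetam, ran from 253 to 348 CPM, with log2 fold changes of -0.02 ± 0.13 and 0.06 ± 0.13 against control in PA and PA + PS2. Syp and Syngr1, tetraspan proteins of the vesicle membrane, ran from 166 to 215 and 166 to 218 CPM, and their log2 fold changes stayed between -0.04 and 0.02.

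None of the 6 genes of SNARE proteins and their disassembly passed in a comparison, and all 6 lay within 0.2 of 0 on the log2 scale in each. Vamp2 stood at 656, 623 and 606 CPM in control, 678, 527 and 625 CPM in PA and 644, 632 and 702 CPM in PA + PS2. Its groups overlapped, with log2 fold changes of -0.04 ± 0.11 in PA and 0.07 ± 0.11 in PA + PS2 against control. Vamp1 stood at 6.74, 5.78 and 5.71 CPM in control, 5.40, 6.83 and 5.49 CPM in PA and 5.68, 7.09 and 5.57 CPM in PA + PS2. Its groups overlapped too, and its log2 ratio to Vamp2 per kilobase was -8.11 ± 0.08 in control, -8.11 ± 0.37 in PA and -8.18 ± 0.26 in PA + PS2 (SD, n = 3 each). Of the plasma membrane SNAREs, Snap25 ran from 171 CPM in PA repeat 1 to 309 CPM in PA repeat 2, and Stx1a from 116 to 163 CPM, both ends of the range of Snap25 falling in PA. Nsf, the ATPase that takes spent SNARE complexes apart, stayed between 143 and 164 CPM, with an interval of -0.19 to 0.19 in PA + PS2 against control. Its adaptor Napb ran from 142 to 211 CPM.

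Calcium sensors and fusion clamps were among the most abundant members, and 0 of the 5 passed. Syt1, the calcium sensor of fast release, stood at 539, 514 and 559 CPM in control, 471, 452 and 555 CPM in PA and 496, 482 and 552 CPM in PA + PS2. It was lower than the control of the same number in 3 of 3 repeats in PA and in PA + PS2, but the groups overlapped and the log2 fold changes were -0.13 ± 0.10 (adjusted p = 1, edgeR) and -0.08 ± 0.10. Syt4 stood at 536, 572 and 663 CPM in control, 443, 511 and 661 CPM in PA and 566, 569 and 654 CPM in PA + PS2. In each group repeat 1 was the lowest and repeat 3 the highest. Cplx2, a complexin, which binds the SNARE complex and clamps it until calcium arrives, stood at 443, 410 and 390 CPM in control, 484, 397 and 418 CPM in PA and 460, 434 and 475 CPM in PA + PS2. The groups overlapped, with a log2 fold change of 0.14 ± 0.10 in PA + PS2 against control (unadjusted p = 0.195, adjusted p = 1, edgeR). With the block that of Cplx2 was 0.14 ± 0.08 (unadjusted p = 0.121, adjusted p = 0.803, edgeR). Its relative Cplx1 ran from 212 to 293 CPM and Syt11, a synaptotagmin that does not bind calcium, from 372 to 439 CPM.

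The 13 genes of the active zone and priming held the members with the smallest p in PA + PS2 against PA, and 0 of 13 passed. Bsn and Pclo encode bassoon and piccolo, the giant scaffold proteins of the active zone. Bsn (chr9:108096022-108190384, mm10, minus strand) stood at 454, 349 and 440 CPM in control, 551, 448 and 439 CPM in PA and 404, 399 and 368 CPM in PA + PS2. Every PA library lay above every PA + PS2 library, and the range of the controls overlapped both groups. The log2 fold change of Bsn was -0.30 ± 0.12 in PA + PS2 against PA (95% interval -0.57 to -0.03, unadjusted p = 0.0347, adjusted p = 0.785, edgeR), 0.21 ± 0.12 in PA against control and -0.09 ± 0.12 in PA + PS2 against control. Without PA repeat 1 the first of these was -0.18 and the second 0.10, and without control repeat 2 the second was also 0.10.

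Pclo (chr5:14514918-14863459, mm10, plus strand) had the same order of groups with more spread. It stood at 234, 193 and 350 CPM in control, 254, 348 and 318 CPM in PA and 200, 240 and 245 CPM in PA + PS2. Again every PA library was above every PA + PS2 library, and the controls held both the lowest and the highest value of all 9. Its log2 fold change was -0.43 ± 0.20 in PA + PS2 against PA (-0.85 to -0.002, unadjusted p = 0.0492, adjusted p = 0.88, edgeR) and 0.25 ± 0.19 in PA against control. The latter was 0.07 without control repeat 2, 0.52 without control repeat 3 and 0.14 without PA repeat 2.

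The Munc13 genes, whose proteins open syntaxin and prime vesicles, had estimates below 0 in PA + PS2 against PA and did not pass. Unc13b stood at 76.7, 84.0 and 80.1 CPM in control, 76.9, 117 and 71.8 CPM in PA and 76.8, 75.1 and 59.2 CPM in PA + PS2. PA repeat 2 was far above the other 8 libraries, and the log2 fold change in PA + PS2 against PA was -0.34 ± 0.17 (unadjusted p = 0.0752, adjusted p = 0.993, edgeR). Without PA repeat 2 it was -0.06, and without PA + PS2 repeat 3 it was -0.22. Unc13a stood at 531, 502 and 418 CPM in control, 539, 582 and 447 CPM in PA and 515, 491 and 386 CPM in PA + PS2. Repeat 3 was the lowest in each group, and the log2 fold change in PA + PS2 against PA was -0.17 ± 0.14, or -0.05 without PA + PS2 repeat 3, -0.07 without PA repeat 2 and -0.27 without PA repeat 3.

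Rims1, which links Rab3 to the priming proteins, stayed between 135 and 146 CPM, with intervals of -0.12 to 0.23 in PA and -0.15 to 0.20 in PA + PS2 against control. Erc1 and Erc2, the ELKS scaffolds, ran from 214 to 243 and 180 to 222 CPM, and the liprins Ppfia2 and Ppfia3 from 170 to 218 and 151 to 201 CPM. Rims2 ran from 46.8 to 61.4 CPM and Rimbp2, which ties RIM to calcium channels, from 38.6 to 52.2 CPM. Rab3a stood at 386, 333 and 327 CPM in control, 412, 310 and 353 CPM in PA and 362, 348 and 392 CPM in PA + PS2. Its groups overlapped, with log2 fold changes of 0.04 ± 0.12 and 0.08 ± 0.12 against control. Rab3c ran from 341 CPM in PA repeat 1 to 526 CPM in control repeat 3.

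The 5 genes of endocytosis and recycling all lay within 0.2 of 0 on the log2 scale in each comparison. Sh3gl2, endophilin A1, which bends the membrane and recruits synaptojanin, stood at 90.1, 82.3 and 91.8 CPM in control, 99.0, 85.8 and 107 CPM in PA and 94.2, 92.8 and 104 CPM in PA + PS2. Its PA + PS2 libraries were all above the controls, with a log2 fold change of 0.14 ± 0.10 (unadjusted p = 0.204, adjusted p = 1, edgeR), and PA repeat 2 lay among the controls. With the block the log2 fold change was 0.14 ± 0.075 (unadjusted p = 0.0894, adjusted p = 0.746, edgeR). Bin1, an amphiphysin relative, stood at 175, 139 and 136 CPM in control, 174, 142 and 142 CPM in PA and 173, 150 and 140 CPM in PA + PS2. Repeat 1 was set apart in all 3 groups, and the groups overlapped, with log2 fold changes of 0.03 ± 0.13 and 0.04 ± 0.13 against control. Dnm1, the GTPase that cuts the vesicle neck, ran from 164 to 214 CPM, Amph from 142 to 168 CPM and Synj1, the lipid phosphatase that helps uncoat vesicles, from 178 to 227 CPM.

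Both vesicular glutamate transporters had estimates above 0 in PA + PS2 against control, and neither passed. Slc17a7 encodes VGLUT1, the transporter of mature cortical synapses, and Slc17a6 encodes VGLUT2, which in cortex is known to come earlier. Slc17a7 stood at 32.9, 30.0 and 18.3 CPM in control, 36.7, 34.0 and 30.2 CPM in PA and 40.2, 34.0 and 27.7 CPM in PA + PS2. Control repeat 3 was the lowest of all 9 libraries, and the groups overlapped. The log2 fold change was 0.31 ± 0.20 in PA (-0.13 to 0.75, unadjusted p = 0.15, adjusted p = 1, edgeR) and 0.32 ± 0.20 in PA + PS2 (-0.12 to 0.77, unadjusted p = 0.134, adjusted p = 1). Without control repeat 3 these were 0.09 and 0.11, and without control repeat 1 they were 0.48 and 0.49; without PA + PS2 repeat 1 the second was 0.20. With the block the values were 0.34 ± 0.11 in both (unadjusted p = 0.0114 and 0.0116, adjusted p = 1 and 0.298, edgeR). Slc17a7 was above the control of the same number in 3 of 3 repeats in both comparisons.

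Slc17a6 stood at 27.1, 29.4 and 30.5 CPM in control, 22.0, 29.8 and 32.6 CPM in PA and 30.2, 34.3 and 35.6 CPM in PA + PS2. PA + PS2 was above the control of the same number in 3 of 3 repeats and overlapped with it by its lowest library, with a log2 fold change of 0.20 ± 0.14 (unadjusted p = 0.181, adjusted p = 1, edgeR). With the block it was 0.20 ± 0.10 (unadjusted p = 0.0679, adjusted p = 0.691, edgeR). Against PA, in the fit without the block, the log2 fold change was 0.25 ± 0.14 (adjusted p = 0.999, edgeR), or 0.10 without PA repeat 1. The log2 ratio of Slc17a7 to Slc17a6 per kilobase was 0.28, 0.03 and -0.73 in control, 0.74, 0.19 and -0.11 in PA and 0.42, -0.01 and -0.36 in PA + PS2. In each group it was highest in repeat 1 and lowest in repeat 3. An exact permutation test that did not use the repeat gave p = 0.5 to 0.7 (2-sided, n = 3 each). Within repeats 1, 2 and 3 the ratio in PA was above that in control by 0.46, 0.16 and 0.62, and PA + PS2 minus control was 0.13, -0.04 and 0.37. An exact sign-flip test over the 3 repeats, added after the data were seen, gave p = 0.25 for the first, the smallest it can give, and 0.5 for the second.

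**Figure D3:**
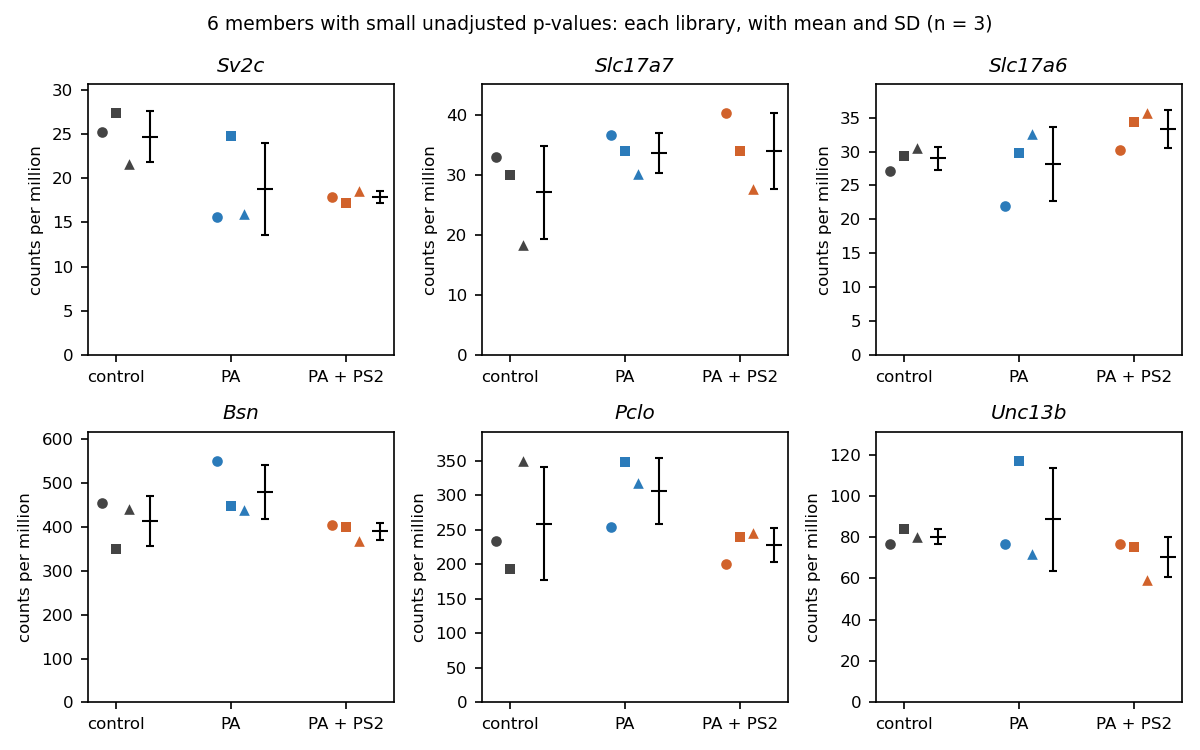
CPM (axis from 0) of 6 genes in each library (circle, square and triangle for repeats 1, 2 and 3), with the mean and SD of each group (n = 3). Sv2c is lower in all PA + PS2 than in all control libraries, Bsn and Pclo are lower in all PA + PS2 than in all PA libraries, and the others overlap.

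Ratios within a library were compared for 14 pairs of related members in 3 comparisons, 42 tests. With 3 libraries against 3 the exact 2-sided permutation test cannot give a p under 0.1, and every adjusted p was 1. The smallest p was reached in PA + PS2 against control by Sv2c over Sv2a, with a difference in log2 ratio of -0.52, and by Cplx1 over Cplx2, with -0.15. The log2 ratio of Cplx1 to Cplx2 per kilobase was 0.49, 0.37 and 0.48 in control and 0.28, 0.30 and 0.33 in PA + PS2, so the groups did not overlap. If the group made no difference, 3 libraries would separate from 3 with a probability of 0.1 for each pair.

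The repeat number went with larger differences than the group did for most members. This description and the test of the repeat were added after the data were seen. Of the variance of log2 CPM over the 9 libraries, the median member had 54.1% between repeats and 13.5% between groups, against 40.6% and 16.0% over all genes tested. Genes at the middle levels of the members had 50.9% and 12.8%. Repeats held more variance than groups in 35 of 39 members, 89.7% (70.4% of all genes and 82% of those at the members' middle levels). The same repeat was highest in all 3 groups for 18 members, 46.2% (27.1% of all genes, 39.4% at the middle levels), and lowest for 16, 41% (28.7% and 36.5%). Sv2c, Bsn, Pclo and Rims1 were the 4 members with more variance between groups, 52.9% of it in Sv2c, 45.2% in Bsn, 33.4% in Pclo and 37.2% in Rims1.

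Bin1, with 95.4% of its variance between repeats, and Syn3, with 92.3%, were the extreme members. In a model with group and repeat, the repeat term passed for 1 of 39 members, Syn3 (adjusted p = 0.046, edgeR; 0.955% of all genes passed), with log2 differences of -0.57 in repeat 2 and -0.41 in repeat 3 from repeat 1. The members next in order did not pass. Sv2b had 0.78 and -0.25 (adjusted p = 0.0514, edgeR), Bin1 -0.28 and -0.32 (0.0552), Unc13a -0.01 and -0.34 (0.0553) and Slc17a7 -0.16 and -0.54 (0.0561). The labels do not say what the repeat number marks.

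**Figure D4:**
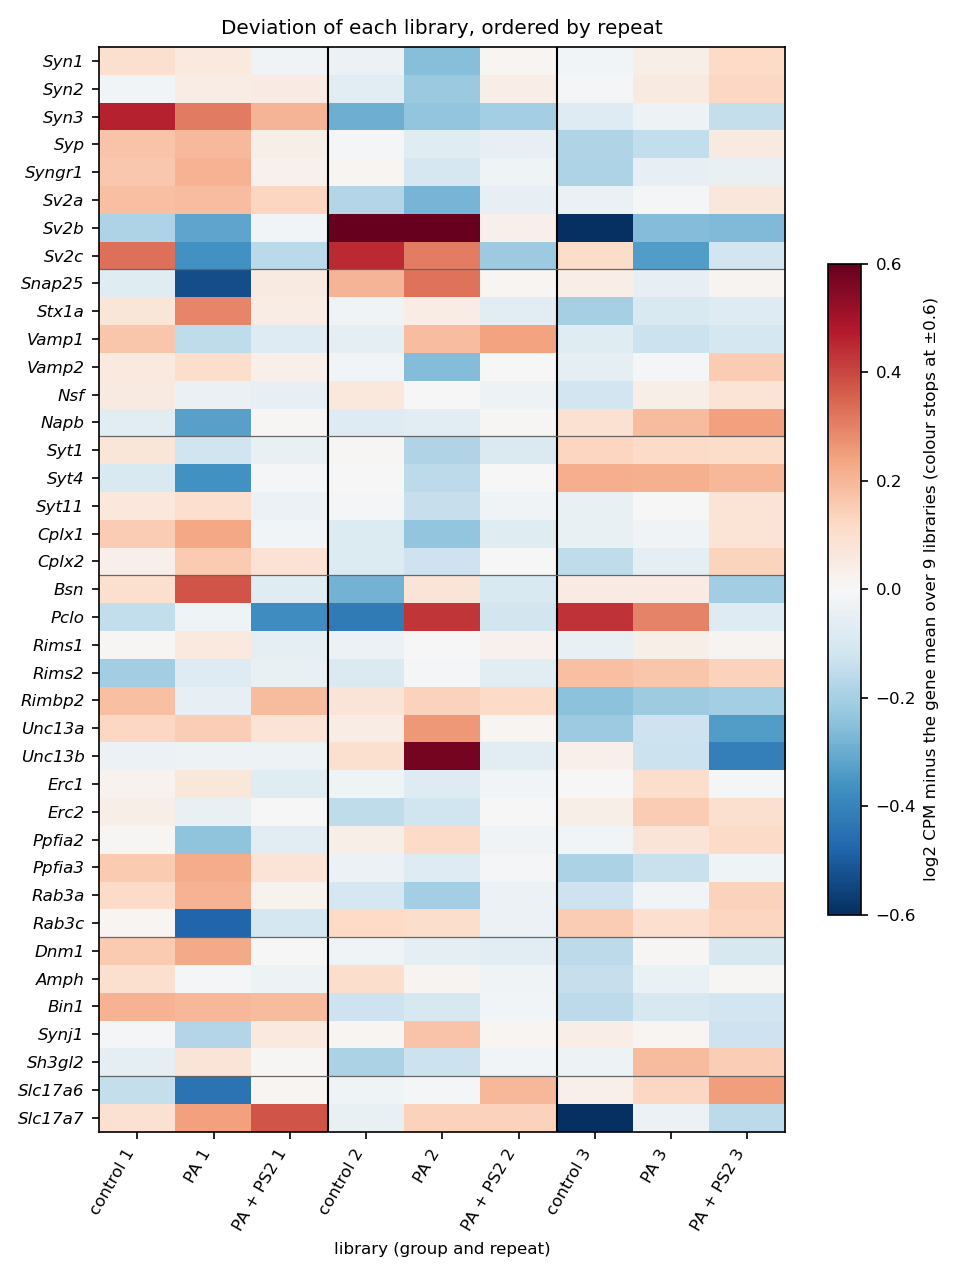
Deviation of each library from the mean log2 level of the gene over 9 libraries (colour, red above and blue below the mean), with libraries ordered by repeat and black lines between repeats. Syn3 and Bin1 are red in all 3 libraries of repeat 1, and Syt4 and Rims2 are red in all 3 of repeat 3.

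Compared within repeats, members had the same sign in all 3 repeats in 23.1% to 28.2% of cases, against 23.4% to 31.0% of all genes. In PA against control 5 members were higher and 4 lower in 3 of 3 repeats (9.77% and 13.6% of all genes). In PA + PS2 against control 7 were higher and 4 lower (15.5% and 15.5%), and in PA + PS2 against PA 4 were higher and 5 lower (13% and 14%). For PA + PS2 against PA the repeat numbers were not taken as pairs, as set out in the last section, so these counts are a description only. Among its 5 lower members, Unc13b in repeat 1 and Dnm1 in repeat 2 had differences that round to 0. Among the 4 lower members in PA against control, Syt4 in repeat 3 had a difference that rounds to 0. Syt1 in repeat 3 and Rab3c in repeat 2 had -0.01 there. Syn2, Napb, Cplx2, Rimbp2, Sh3gl2, Slc17a6 and Slc17a7 were the 7 higher ones in PA + PS2 against control, and Sv2c, Syt1, Unc13a and Rab3c the 4 lower.

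Exon length was set beside the fold changes after the data were seen, because the giant scaffold genes lay at the low end in PA + PS2 against PA. The 6 longest members are Unc13b with 22746 bases of exon, Pclo with 22457, Erc1 with 16271, Bsn with 15938, Unc13a with 12623 and Syn3 with 12282. All 6 had estimates below 0 in both comparisons of PA + PS2. Across the 39 members, Spearman's rho between exon length and log2 fold change was 0.17 in PA against control, -0.52 in PA + PS2 against control and -0.43 in PA + PS2 against PA. Over 15699 genes with a length it was -0.06, -0.10 and -0.03. Without the 6 longest, the 33 other members gave -0.11, -0.27 and -0.12, so the values rest in large part on those 6. Genes are not independent replicates, the 2 comparisons of PA + PS2 share its libraries, and no test was made.

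**Figure D5:**
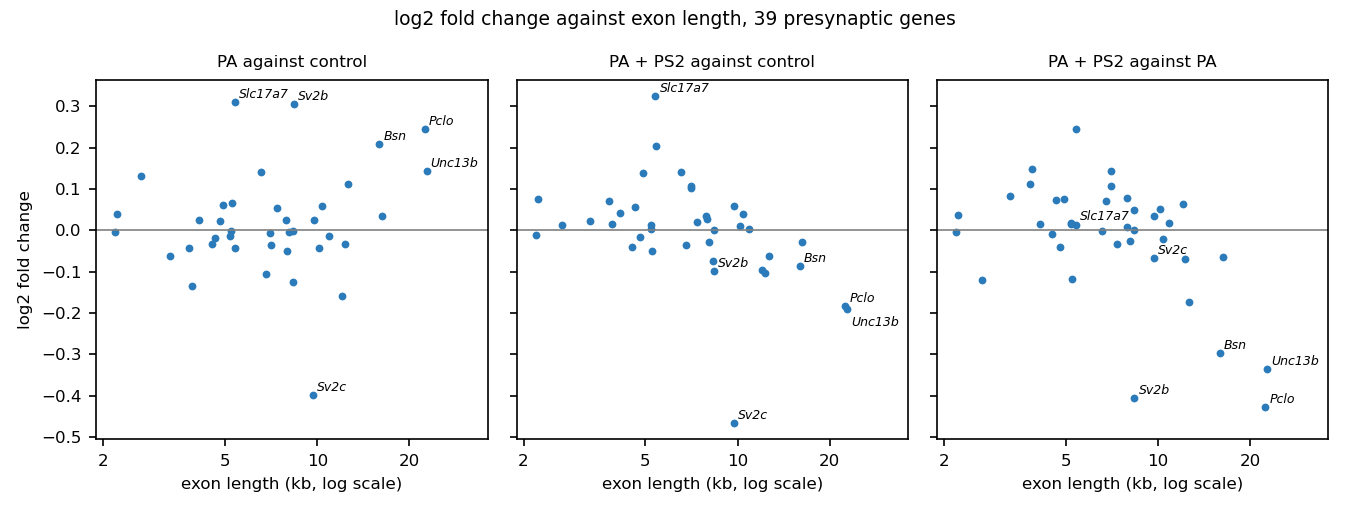
The log2 fold change of each of the 39 genes against its exon length in kilobases (log axis) in the 3 comparisons. Unc13b, Pclo and Bsn lie at the right, above 0 in PA against control and below 0 in both comparisons of PA + PS2.

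Of 63 other presynaptic genes listed, 62 were tested and 0 passed in any comparison. Their median log2 fold change was -0.004 in PA against control, 0.041 in PA + PS2 against control and 0.037 in PA + PS2 against PA. Within 0.2 of 0 on the log2 scale lay 57, 56 and 55 of the 62. Doc2a, a calcium sensor of spontaneous and asynchronous release, stood at 2.67, 2.22 and 2.21 CPM in control and 4.23, 3.20 and 3.70 CPM in PA + PS2, without overlap, a log2 fold change of 0.65 ± 0.27 (unadjusted p = 0.0324, adjusted p = 0.722, edgeR). In the same comparison Rph3a, a Rab3 effector, had 0.34 ± 0.19, Cacna1a -0.19 ± 0.12 and Atp6v1b2, a subunit of the vesicle proton pump, 0.12 ± 0.09.

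In PA + PS2 against PA the smallest p of the other genes was that of Cacna1a, the pore of the P/Q-type calcium channel that triggers release. Its PA libraries stood at 94.6, 95.5 and 73.4 CPM and its PA + PS2 libraries at 75.8, 72.7 and 64.2 CPM, with a log2 fold change of -0.31 ± 0.12 (unadjusted p = 0.0285, adjusted p = 0.742, edgeR). PA repeat 3 lay within the PA + PS2 range. Itsn1, an endocytic scaffold, had -0.16 ± 0.09, Scamp1 0.19 ± 0.13 and Tspoap1 -0.22 ± 0.17. In PA against control the 4 with the smallest p were Syt2 at 0.36 ± 0.27, Doc2a at 0.35 ± 0.27, Itsn1 at 0.10 ± 0.09 and Vamp3 at -0.22 ± 0.20 on the log2 scale, each with an adjusted p of 1.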

How the data were processed

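The authors deposited raw read counts per Ensembl gene, whole numbers with no normalization, in 1 file per library. The submitters' processing notes list build mm10 and, without roles, STAR 2.7.5, cutadapt 4.2, DESeq2 1.14.1 and HTSeq 2.0.2. The annotation and strand setting are not given in the sources used here, and the labels give both polyA RNA and a total RNA kit. GENCODE M21 (the same build) supplied symbols, coordinates and exon lengths and matched 54165 identifiers.

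Counts were fitted with the quasi-likelihood test of edgeR 4.0.16 (R 4.3.3), all 9 libraries, group only, TMM scaling, filterByExpr (minimum count 10, minimum total 15), leaving 15712 genes. The test is 2-sided, adjusted by Benjamini and Hochberg over all genes tested, with a threshold of 0.05. Errors of fold changes are standard errors, and the common coefficient of variation was 16.6%. The code was tested on simulated data. DESeq2 1.42.0, other scalings, no filter, only 6 libraries, the repeat as a block and leaving out each library were alternatives.

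The members and lists were chosen with earlier results of these data known. Library values are given for the 6 members with the smallest unadjusted p per comparison, the 3 highest and 3 lowest per kilobase in control, Slc17a6, Slc17a7, Vamp1 and Vamp2, and, of the other presynaptic genes, the 4 with the smallest p are named. Syn3, Bin1, the promoters, exon length, the counts of interval widths and of signs within repeats, and the unadjusted counts with the block were chosen after values were seen. The groups share repeat numbers. Across genes, deviations of same-numbered libraries correlated by 0.41, 0.36 and 0.27 for PA and control and by 0.17, 0.21 and 0.12 for PA + PS2 and control, so the numbers were taken as pairs there. This pairing is read from the data. The edgeR fold changes and p-values given without mention of the block come from the fit with group only, which does not use the pairs.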

Additional observations from a re-analysis of the deposited data

How the results depend on the processing

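The count of members passing stayed at 0 in each comparison under all 6 alternative fits and all 9 fits without a library. The lowest adjusted p of any member was 0.907 in PA against control, 0.161 (Sv2c, only the 6 libraries compared) in PA + PS2 against control and 0.063 (Pclo, no low-count filter) in PA + PS2 against PA. Counts over all genes did depend on the settings. In PA against control 23 genes passed without the filter. In PA + PS2 against control, where 7 passed, it was 17 with DESeq2 size factors in edgeR, 0 with scaling by pan-neuronal markers, 365 without the filter, 208 with DESeq2, 28 with only the 6 libraries and 184 with the repeat as a block. In PA + PS2 against PA, where 0 passed, it was 330 without the filter, 121 with DESeq2 and 57 with the block. For that pair the same-numbered libraries correlated by 0.01, 0.29 and 0.29, not each over 0.1, so the numbers were not taken as pairs there, and not every library correlated best with its own number. Over the members alone the same pairs gave 0.42, 0.62 and 0.78, as a description. With the block 5 members had an unadjusted p under 0.05 in that comparison, Bsn, Pclo, Unc13a, Unc13b and Slc17a6, with 9.3% of all genes. The log2 ratio of Slc17a7 to Slc17a6 in PA + PS2 minus that in PA was -0.32, -0.20 and -0.25 by repeat number, as a description. The exact sign-flip test gave p = 0.25, the smallest possible with 3 repeats. That test needs the pairs not taken here, so nothing is drawn from it. Without 1 library the counts ran from 0 to 175 (without control repeat 1) in PA + PS2 against control, and 0 to 37 (also without control repeat 1) in PA + PS2 against PA. The causes were not tested.

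The members' median log2 fold change ran from -0.025 to 0.054 in PA and from -0.027 to 0.066 in PA + PS2 against control without 1 library, the highest both without control repeat 1. Scaling by pan-neuronal markers lowered the median of all genes by -0.069 in PA + PS2 against control. Under it the members' median was -0.059, Vamp1 was -0.057, Vamp2 -0.001 and Syt4 -0.059, and in PA + PS2 against PA Slc17a7 was -0.023 and Rab3a -0.001. Under the block, Sv2b was 0.016 in PA + PS2 against control. In PA + PS2 against PA, Slc17a7 was -0.001 under the block, Sh3gl2 moved from -0.002 to 0.002 and Cplx1 from -0.005 to 0.006. The block changed no other sign among the 39 members and no member's call. Over all 39 members, 0 to 15 signs changed under the alternative fits and 0 to 14 without a library. Without the 6 longest members, added after the data were seen, the correlation with exon length in PA against control was -0.11.

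Leaving out 1 library also turned some signs, with these ranges of log2 fold change. In PA against control they were -0.161 to 0.105 for Slc17a6, -0.168 to 0.04 for Vamp1, -0.125 to 0.044 for Vamp2, -0.319 to 0.756 for Sv2b and -0.075 to 0.124 for Rab3a. For PA + PS2 against control they were -0.109 to 0.093 for Vamp1, -0.362 to 0.36 for Sv2b and -0.055 to 0.107 for Syt4. For PA + PS2 against PA they were -0.11 to 0.144 for Slc17a7, -0.072 to 0.187 for Vamp1, -0.179 to 0.203 for Sv2c, -0.64 to 0.23 for Sv2b and -0.039 to 0.151 for Rab3a. Of the 14 pairs of related genes, 0 to 2 had ratios without overlap in PA against control when 1 library was left out. The range was 2 to 5 pairs in PA + PS2 against control and 0 to 3 in PA + PS2 against PA. Separation comes more easily with fewer libraries, and its share over other pairs of genes was not counted. With 3 libraries a group, 5 to 7 members had intervals reaching past a 1.41-fold change, and depth added a counting error of 6.94% at 10 CPM.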
